A study of Mus musculus with 2 samples.

Results

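The genes described here are 49 genes of epithelial cell junctions, keratin filaments and pancreatic ducts, chosen by name and read out in whole mouse pancreas at E15.5. Earlier results of these data were known when the 49, and the gene lists set beside them, were chosen. Of the 49, 48 had a value on the arrays, out of 19946 genes in all, while *Spp1*, a duct gene, was not analysed here. One comparison was made, *Mafk*-Tg against WT. *Mafk*-Tg embryos carry a FLAG-tagged cDNA of murine MAFK, a small MAF protein, driven by the rat insulin I promoter, which confines the transgene to β-cells, and WT embryos carry no transgene. Both genotypes were on an ICR background, the transgene having been introduced into BDF1 eggs. RNA of the whole pancreas, with 3 pancreata stated for each genotype, was measured on 1 Affymetrix mouse gene array per genotype, and it is not stated whether an array held a pool. Levels are log2 array values, and each difference is the *Mafk*-Tg value minus that of WT. With 1 array per genotype there is no replicate error, no test was run, and every value below describes these 2 arrays.

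At this stage the pancreas is a branching epithelium embedded in mesenchyme, with blood vessels, blood cells and nerves. The epithelium holds acinar cells, duct and trunk progenitors, and the endocrine cells that leave it. Epithelial cells are held together near the lumen by tight junctions, which are built from claudins, occludin-like proteins and the scaffolds beneath them, by adherens junctions around E-cadherin, and by desmosomes, which anchor keratin filaments. These genes are therefore taken here, in bulk RNA, as a reading of the epithelium. The reading is not a pure one, because some of them are duct genes and some are expressed outside the epithelium too. A larger share of epithelial cells and more RNA of these genes per cell cannot be told apart in such a measurement.

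The tissue carried pancreatic genes on both arrays. *Ptf1a*, a factor of acinar and early progenitor cells, had 8.73 in *Mafk*-Tg and 8.49 in WT, and the carboxypeptidase gene *Cpa1* had 13.51 in *Mafk*-Tg and 13.48 in WT. *Mafk* itself had 6.997 in *Mafk*-Tg and 6.75 in WT, a difference of 0.25, just short of 1.2-fold. The arrays also differed in sex-linked genes. *Xist* had 11.30 in *Mafk*-Tg and 4.40 in WT, and the Y-linked *Eif2s3y* had 2.61 in *Mafk*-Tg and 8.29 in WT, so that genotype and the sex of the embryos cannot be told apart. The claudin gene *Cldn2* is the single X-linked gene among the 49, which lie on 18 chromosomes.

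Epithelial genes were slightly higher in *Mafk*-Tg, together and by a narrow margin. Of the 48, 40 had a difference above 0, 7 had one below 0, and *Ovol2* had the same value on both arrays, while over all genes 44.9% had a difference above 0. The median difference was 0.15, against -0.01 for all genes, and the quartiles of the members were 0.085 and 0.251. At the cutoff of 1.2-fold, or 0.26 on the log2 scale, 9 were higher in *Mafk*-Tg and 1 was lower. In the background, 7.96% of all genes were higher by that cutoff and 10.5% were lower. The 9 make up 18.75% of the members. At a looser cutoff of 1.1-fold, 28 were higher and 3 lower, where the background was 20.8% higher and 25.7% lower. At 1.5-fold, 0 were higher and 0 lower, where the background was 0.697% higher and 1.27% lower.

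Most members therefore differed by less than the cutoff, and what most of them had in common was the direction. In all, 34 of the 48, or 70.83%, lay between 0.05 and 0.30, where 29.28% of all genes lay. The members were also close to each other: among the 42 with a mean level no lower than 5.999, the median level of all probe sets, the robust SD of the difference was 0.10, against 0.16 over the 11413 genes of that level. Of these 42, 37 had a difference above 0, where the background was 47.3%, and 8 were at least 1.2-fold higher and 0 lower, where the background was 5.58% higher and 5.87% lower. The other 6, *Krt20*, *Krt23*, *Cldn2*, *Cldn23*, *Ovol2* and *Cftr*, lay below that level, where array background weighs more, and they held 1 of the 9 higher genes and the 1 lower gene. Of the 8533 genes below it, 11.1% were higher, 16.6% were lower and 41.7% had a difference above 0. Genes are not independent replicates, and no test is attached to these counts. The members were also chosen with earlier results of these data known, so their shared direction is not an independent finding.

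**Figure D1:**
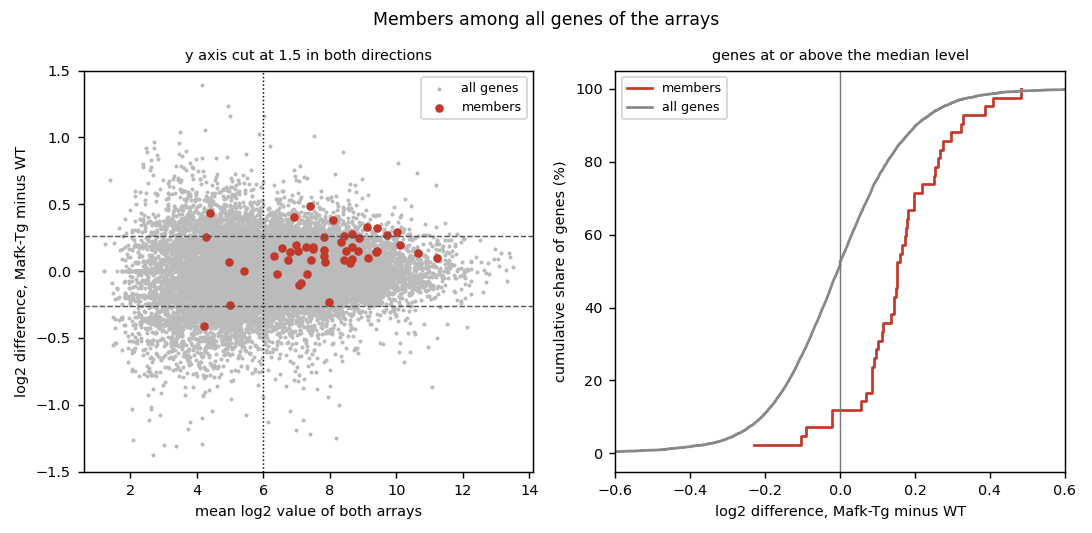
Left, the log2 difference (*Mafk*-Tg minus WT) against the mean log2 value of both arrays for 48 members (red) and all genes (grey), with dashed lines at 1.2-fold a dotted line at the median level of all probe sets, and larger differences of a few genes beyond the axis. Right, the cumulative share of genes at or above that level by log2 difference, where the 42 members (red) lie to the right of all genes (grey), with a median of 0.15 against -0.01.

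*Cdh1* and *Epcam*, the surface adhesion genes by which epithelial cells are usually recognised, were both slightly higher. *Cdh1*, which encodes E-cadherin, had 10.22 in *Mafk*-Tg and 10.03 in WT, a ratio of 1.146. *Epcam*, the gene of an adhesion molecule found throughout the pancreatic epithelium, had 8.91 in *Mafk*-Tg and 8.76 in WT, a ratio of 1.11. Neither reached 1.2-fold. *Vim*, the gene of the mesenchymal filament protein vimentin, ran the other way, with 11.96 in *Mafk*-Tg and 12.16 in WT. It was chosen after its value was seen. Of the 15 mesenchymal genes listed below, 12 had a difference below 0 and 3 had one above 0.

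The keratins of simple epithelia differed little between the arrays. KRT8 and KRT18 pair to form the filament of simple epithelia. *Krt8* had 11.26 in *Mafk*-Tg and 11.16 in WT, and *Krt18* had 10.72 in *Mafk*-Tg and 10.59 in WT. Their genes are next to each other on chromosome 15, and their differences, 0.10 and 0.13, were close. The duct keratins *Krt7* and *Krt19* gave 8.57 in *Mafk*-Tg and 8.42 in WT, and 7.49 in *Mafk*-Tg and 7.41 in WT. *Krt20*, a keratin of gut and urothelial lining, was 1.35-fold higher, at 4.62 in *Mafk*-Tg and 4.18 in WT, and *Krt23* had 4.995 in *Mafk*-Tg and 4.92 in WT. Both lay below the median level, so the call for *Krt20* rests on a dim signal. All 6 keratins had a difference above 0, where the background over all genes was 44.9%, and their median was 0.12.

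Mesothelium, the lining of the organ surface, expresses *Krt7*, *Krt8*, *Krt18* and *Krt19* too. Most of its other markers had values slightly below WT. Of 9 mesothelial genes, 7 had a difference below 0, 2 had one above 0, and 0 passed 1.2-fold in either direction. Over all genes, 44.9% had a difference above 0, and 7.96% passed 1.2-fold upward and 10.5% downward. The median of the 9 was -0.06, with *Gpm6a* at -0.21, *Wt1* at -0.13 and *Muc16* at -0.12. Summed linear signal of the 9 was 2145 in *Mafk*-Tg and 2286 in WT. The part of mesothelium in the values of the keratins was not tested.

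**Figure D2:**
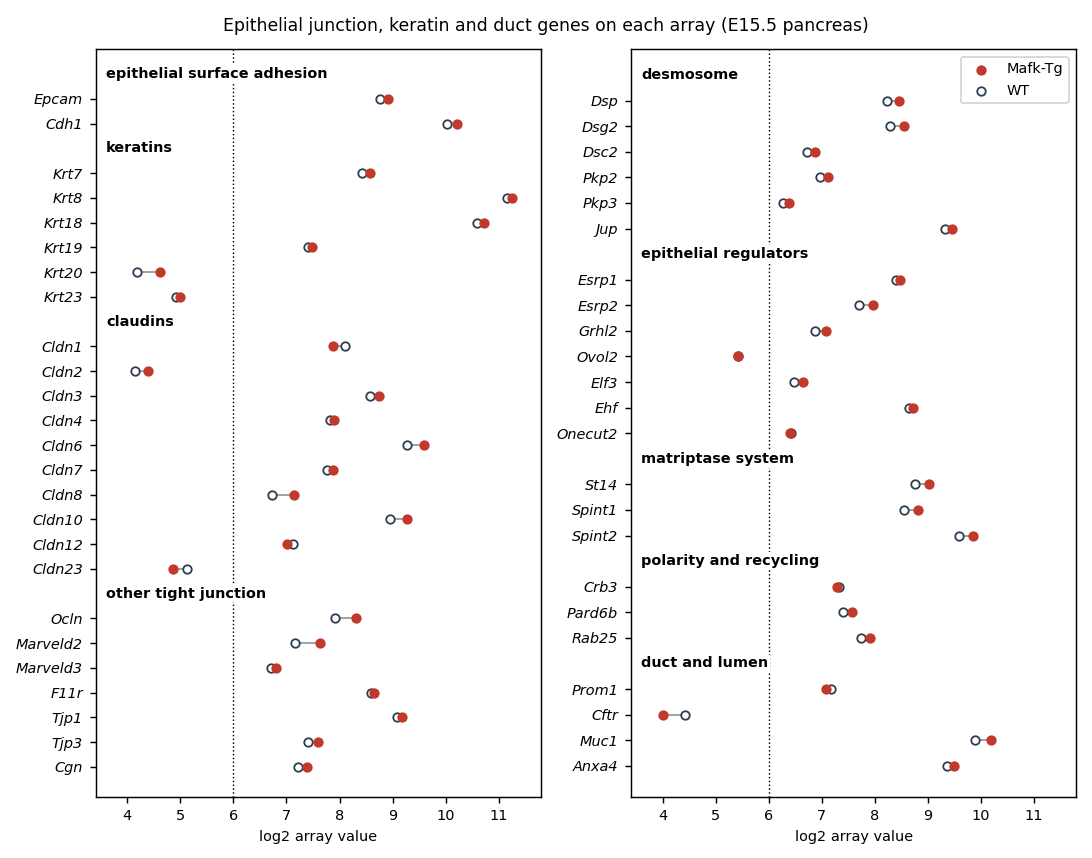
Log2 array values of the 48 members in *Mafk*-Tg (filled red) and WT (open), 1 array each, by role of the gene, a line between both values of a gene and a dotted line at 5.999, the median level of all probe sets. *Mafk*-Tg lies to the right of WT in 40 genes, and *Cldn1*, *Cldn12*, *Cldn23*, *Onecut2*, *Crb3*, *Prom1* and *Cftr* run the other way.

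Claudins, the proteins that seal or open the tight junction to ions, did not share 1 direction. Of 10, 3 were at least 1.2-fold higher and 0 lower, where the background over all genes was 7.96% and 10.5%, and 7 had a difference above 0, where it was 44.9%. The differences ranged from -0.26 to 0.41 around a median of 0.15. *Cldn8*, the gene of a claudin that restricts cation passage in the kidney, had the highest difference, 0.41, with 7.14 in *Mafk*-Tg and 6.73 in WT. *Cldn10*, whose product forms ion-selective pores and marks secretory epithelium, had 9.27 in *Mafk*-Tg and 8.94 in WT, a difference of 0.33. *Cldn6*, a claudin of embryonic epithelia, had 9.59 in *Mafk*-Tg and 9.27 in WT, a difference of 0.32.

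*Cldn10* was measured by 2 probe sets of its own, which gave 0.33 and 0.32. A further probe set, shared with *Dzip1*, ran the other way, with 6.11 in *Mafk*-Tg and 6.39 in WT, and averaging it in would take *Cldn10* to 0.13, under the cutoff. Its signal cannot be assigned to either gene.

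The claudins that seal epithelia more generally gave smaller values. *Cldn3* had 8.74 in *Mafk*-Tg and 8.57 in WT, *Cldn7* had 7.88 in *Mafk*-Tg and 7.77 in WT, and *Cldn4* had 7.90 in *Mafk*-Tg and 7.83 in WT. *Cldn3* and *Cldn4* are neighbours on chromosome 5 and differed by 0.18 and 0.07. The claudins *Cldn1*, *Cldn12* and *Cldn23* had values below WT. These were *Cldn1*, the barrier claudin of skin, with 7.87 in *Mafk*-Tg and 8.10 in WT, the broadly expressed *Cldn12*, with 7.02 in *Mafk*-Tg and 7.12 in WT, and *Cldn23*, with 4.87 in *Mafk*-Tg and 5.12 in WT. None of these differences, -0.23, -0.10 and -0.26, reached the cutoff. The X-linked *Cldn2*, the gene of a cation and water pore, had 4.39 in *Mafk*-Tg and 4.14 in WT, a dim signal, and without it the claudin median was 0.11.

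The other 12 claudin genes are not members, and 5 of them lay at or above the median level. Of the 12, 1 was at least 1.2-fold higher, 3 were lower, 2 had a difference above 0, and the median was -0.21. Among the 5, 1 was higher and 1 lower, and of all genes below the median level 16.6% were lower. *Cldn18*, a claudin of stomach and lung, was higher by 0.55, with 7.40 in *Mafk*-Tg and 6.85 in WT, and *Cldn5*, the claudin of blood vessel lining, was lower, with 7.89 in *Mafk*-Tg and 8.25 in WT. The other 2 lower, *Cldn13* at -0.37 and *Cldn16* at -0.34, were dim, and *Cldn15* had -0.21. Beyond *Cldn5*, the genes of endothelium had a median of -0.09 and 1 of 14, *Erg*, passed the cutoff downward with -0.27.

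Tight junction genes other than claudins held the member with the largest difference. *Marveld2* encodes tricellulin, which closes the point where several cells meet. It had 7.64 in *Mafk*-Tg and 7.16 in WT, a difference of 0.48 and a ratio of 1.40. *Ocln*, the gene of occludin, had 8.30 in *Mafk*-Tg and 7.92 in WT, a difference of 0.39 and a ratio of 1.31. The 2 genes encode proteins of the same MARVEL domain family and are immediate neighbours on chromosome 13. *Marveld3*, which encodes the remaining member of that family at the junction and lies on chromosome 8, had 6.80 in *Mafk*-Tg and 6.71 in WT, a difference of 0.09.

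The cytoplasmic scaffolds beneath the junction were within the cutoff. *Tjp3*, encoding ZO-3, had 7.59 in *Mafk*-Tg and 7.41 in WT, and *Cgn*, encoding cingulin, had 7.39 in *Mafk*-Tg and 7.21 in WT. *Tjp1*, encoding ZO-1, which endothelium and mesenchyme also express, had 9.18 in *Mafk*-Tg and 9.08 in WT. *F11r*, the gene of the adhesion molecule JAM-A, also found on platelets and leukocytes, had 8.65 in *Mafk*-Tg and 8.59 in WT. The differences of *Tjp3* and *Cgn* were 0.18 each, and those of *Tjp1* and *F11r* were 0.10 and 0.06.

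Desmosomal genes gave similar values throughout. All 6 had a difference above 0, within the range of 0.11 to 0.26, and 0 passed the cutoff. All genes at or above the median level gave 47.3% above 0, 5.58% past the cutoff upward and 5.87% downward. *Dsg2*, the gene of the desmosomal cadherin desmoglein 2, had 8.56 in *Mafk*-Tg and 8.29 in WT, a ratio of 1.199 that lay just under the cutoff. *Dsp*, encoding desmoplakin, which ties keratin filaments to the plaque, had 8.45 in *Mafk*-Tg and 8.24 in WT. *Dsc2*, encoding the other cadherin of the pair, had 6.87 in *Mafk*-Tg and 6.73 in WT. The plaque genes *Pkp2*, *Pkp3* and *Jup* had differences of 0.15, 0.11 and 0.14. *Jup* encodes plakoglobin, which adherens junctions use as well, and had 9.46 in *Mafk*-Tg and 9.31 in WT.

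**Figure D3:**
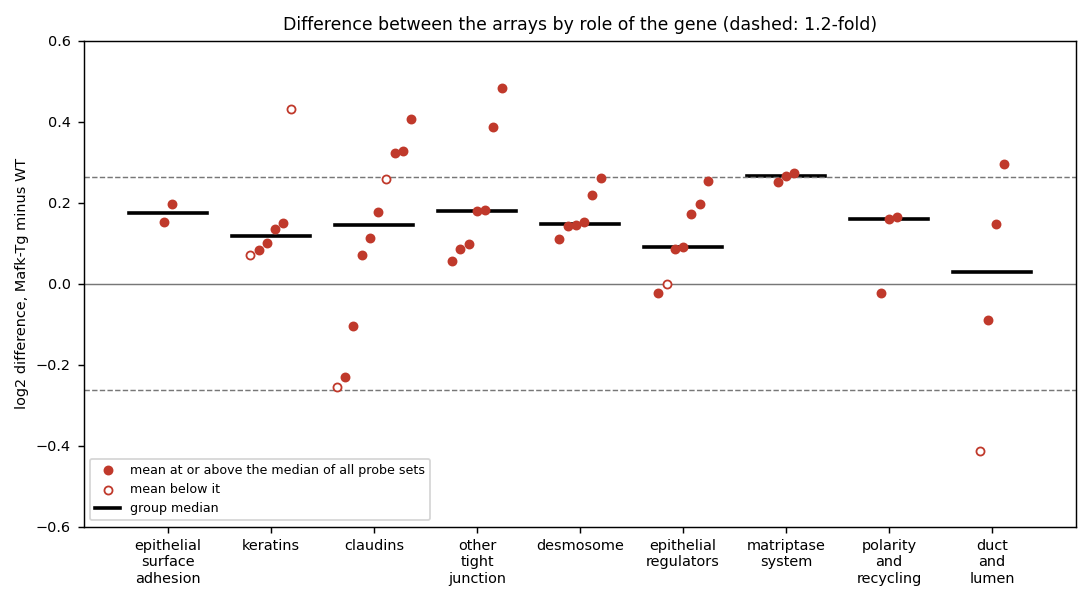
Differences of the members on the log2 scale (*Mafk*-Tg minus WT), by role, with filled points for genes no dimmer than the median level, open points for dimmer genes, bars at group medians and dashed lines at 1.2-fold. *Marveld2* at 0.48 is the highest point and *Cftr* at -0.41 the lowest, and the 3 genes of the matriptase system sit together at 0.25 to 0.27.

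Genes of the matriptase system had the highest group median, 0.27. Matriptase, encoded by *St14*, is a protease of the epithelial surface, and *Spint1* and *Spint2* encode HAI-1 and HAI-2, its Kunitz-type inhibitors. *St14* had 9.02 in *Mafk*-Tg and 8.76 in WT, a ratio of 1.19. *Spint1* had 8.82 in *Mafk*-Tg and 8.54 in WT, a ratio of 1.21, and *Spint2* had 9.86 in *Mafk*-Tg and 9.59 in WT, a ratio of 1.203. The protease and both inhibitors thus lay on either side of the cutoff, with *St14* at 0.25, *Spint2* at 0.27 and *Spint1* at 0.27, and both quantile and loess normalization take *Spint2* below it. *Prss8*, the gene of prostasin, a membrane protease that acts with matriptase and is not a member, was higher by 0.35, with 9.31 in *Mafk*-Tg and 8.96 in WT.

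Regulators of the epithelial state gave small differences. *Esrp1* and *Esrp2* encode the splicing factors that keep epithelial isoforms. *Esrp2* had 7.96 in *Mafk*-Tg and 7.71 in WT, a difference of 0.25, and *Esrp1* had 8.48 in *Mafk*-Tg and 8.39 in WT, a difference of 0.09. *Grhl2*, a transcription factor that activates junction genes such as *Cdh1*, had 7.07 in *Mafk*-Tg and 6.88 in WT. The ETS factor genes *Elf3* and *Ehf* had differences of 0.17 and 0.09. *Onecut2*, a factor of endoderm progenitors, had 6.40 in *Mafk*-Tg and 6.42 in WT. *Ovol2*, a repressor of mesenchymal genes, had 5.43 on both arrays. Such an exact match between the arrays was found for 3.45% of all genes. None of the 7 passed the cutoff, where the background over all genes was 7.96% higher and 10.5% lower, and their median was 0.09.

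Polarity and recycling genes were split. *Pard6b*, encoding a subunit of the apical PAR complex, had 7.57 in *Mafk*-Tg and 7.41 in WT, and *Rab25*, encoding a GTPase of apical recycling, had 7.90 in *Mafk*-Tg and 7.74 in WT. *Crb3*, encoding the apical polarity protein of the Crumbs complex, had 7.29 in *Mafk*-Tg and 7.32 in WT. The differences were 0.16, 0.16 and -0.02, all within the cutoff.

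Genes of the duct and lumen were mixed too. *Muc1*, the gene of the transmembrane mucin of the apical surface, was higher, with 10.18 in *Mafk*-Tg and 9.89 in WT, a ratio of 1.23. *Anxa4*, a calcium-binding annexin gene of secretory epithelia, had 9.50 in *Mafk*-Tg and 9.35 in WT. *Prom1*, which encodes the CD133 antigen of ducts and progenitors, had 7.08 in *Mafk*-Tg and 7.17 in WT. *Cftr*, the gene of the duct chloride channel, was lower, with 4.01 in *Mafk*-Tg and 4.42 in WT, a ratio of 0.751. It is the 1 member past the cutoff downward, and its level was dim. The median of the 4 was 0.03, and it was 0.15 with *Cftr* left out as dim.

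Trunk and duct progenitor genes outside the members, kept as a separate list, lay close to the median of the members. All 9 measured had a difference above 0, 1 was at least 1.2-fold higher and 0 lower, and the median was 0.14. Over all genes, 44.9% had a difference above 0, 7.96% were higher by that cutoff and 10.5% lower. Among the 9, the cutoff was passed by *Prox1* at 0.31. *Dcdc2a*, a ciliary gene of bile and pancreatic ducts, had 0.25, and *Pkhd1*, the gene of the ciliary protein fibrocystin, had 0.19. *Sox9*, the factor that marks trunk and duct cells, had 8.89 in *Mafk*-Tg and 8.74 in WT.

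Further genes of epithelial identity and of the general junction machinery were kept as separate lists. The background over all genes was 44.9% with a difference above 0, 7.96% at least 1.2-fold higher and 10.5% lower. All 14 further epithelial genes measured had a difference above 0, with 3 at least 1.2-fold higher, 0 lower and a median of 0.18. Beside *Prss8*, *Cdcp1*, the gene of a surface glycoprotein, had 0.34, the dim *Macc1* had 0.47 and *Klf5*, a factor of epithelial proliferation, had 0.22. Of 23 further genes of junctions and polarity, many of which are used in every tissue, 1 was higher, 1 was lower, 13 had a difference above 0, and the median was 0.03. *Perp*, a desmosomal gene, had 0.32, *Magi1*, a scaffold gene, had 0.26 and *Nectin1*, an adhesion gene, had -0.32. The catenin genes *Ctnnb1*, *Ctnna1* and *Ctnnd1*, which link cadherins to actin in epithelium and mesenchyme alike, had -0.05, 0.01 and 0.08. Keratins of stratified epithelia had a median of 0.23 with 4 of 9 higher and 0 lower, but 8 of the 9 were dim and the remaining 1, *Krt14*, had 0.22.

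Genes of other cell types in the dissected tissue also differed between the arrays. Past the cutoff, the background over all genes was 7.96% upward and 10.5% downward. Acinar genes, which belong to the same epithelium, had 3 of 14 past the cutoff upward, 0 downward and a median of 0.18, with *Zg16* at 0.71, *Bhlha15* at 0.42 and *Gata4* at 0.27. Of 17 endocrine genes 7 were higher and 2 lower, the median was 0.23, and *Chgb* at 0.73, *Ppy* at 0.56 and *Neurog3* at 0.51 had the largest differences, while the hormone gene *Ins2* at -0.40 and *Chga* at -0.32 were the 2 lower. Mesenchymal genes had a median of -0.11, with 0 of 15 higher and 2 lower, *Myl9* at -0.43 and *Pdgfrb* at -0.35, and *Acta2* had -0.25. Of the 15, 12 had a difference below 0 and 3 had one above 0, at most 0.055. The gap between the member median and the mesenchymal one was 0.27. Summed linear signal of the mesenchymal list was 18405 in *Mafk*-Tg and 20094 in WT, and that of the members was 18931 in *Mafk*-Tg and 16830 in WT.

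For most blood and liver genes the value of *Mafk*-Tg lay below that of WT, and their medians were farther from 0 than that of the members. Of all genes, 10.5% passed the cutoff downward and 7.96% upward, and 44.9% had a difference above 0. Of 15 leukocyte genes 13 passed the cutoff downward and 0 upward, with a median of -0.58 and a summed linear signal of 4865 in *Mafk*-Tg and 7977 in WT. Among them were *Ctsg* at -1.25, *Mpo* at -1.0 and *Elane* at -0.88. Erythroid genes had a median of -0.53, with 9 of 12 lower, 0 higher, and a summed signal of 3182 in *Mafk*-Tg and 4462 in WT, and *Car1* at -1.19, *Rhag* at -1.11 and *Ermap* at -0.86 led them. Hepatocyte genes had a median of -0.51, with 8 of 10 lower, 0 higher, and a summed signal of 2880 in *Mafk*-Tg and 4154 in WT, with *Apob* at -0.94, *Trf* at -0.59 and *Apoa1* at -0.59. A difference above 0 was found for 1 leukocyte gene, 1 hepatocyte gene and 0 erythroid genes. The part of fewer blood, liver or mesenchymal cells in the higher values of the epithelial genes was not tested. Reference genes used in every cell had a median of 0.02, with *Sdha* at 0.19, *B2m* at -0.13 and *Actb* at -0.08, and 0 of 8 passed the cutoff.

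**Figure D4:**
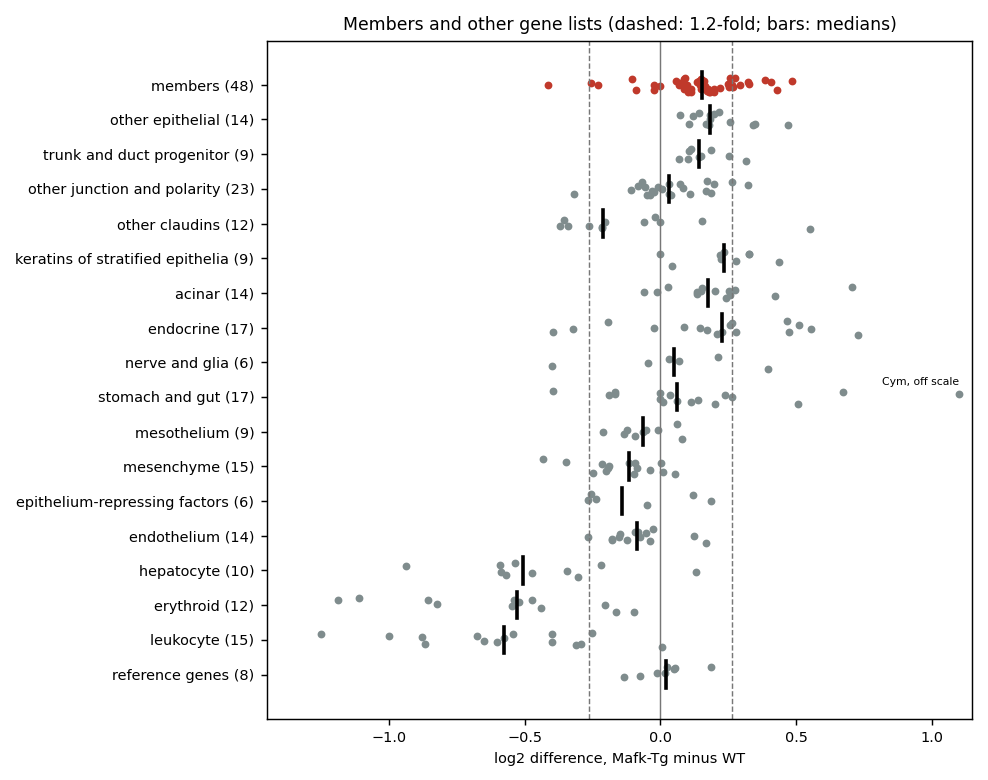
Points are single genes and bars medians of the difference on the log2 scale (*Mafk*-Tg minus WT) for the 48 members (red) and 17 other gene lists (grey), with dashed lines at 1.2-fold and *Cym*, whose difference was 3.34, drawn at the right edge. The members have a median of 0.15, the acinar and endocrine lists at 0.18 and 0.23 lie to the right of 0, mesenchyme at -0.11 lies to the left, and leukocyte genes at -0.58 lie farthest left.

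Epithelial junction genes are known targets of SNAI and ZEB repressors, which silence *Cdh1* by binding short E-box sites near its start. Of these repressors, *Snai1* only just passed 1.2-fold downward, at -0.266, with 7.26 in *Mafk*-Tg and 7.53 in WT. Over all genes, 10.5% were at least 1.2-fold lower. *Zeb2* had 9.14 in *Mafk*-Tg and 9.39 in WT, *Snai2* had 8.60 in *Mafk*-Tg and 8.84 in WT, and *Zeb1* had 8.35 in *Mafk*-Tg and 8.4 in WT. With *Twist1* and *Twist2*, at 0.18 and 0.12, the list of 6 had a median of -0.14, and without the dim *Twist1* it was -0.24. Mesenchyme expresses these genes, and the part of its lower median in their values was not tested.

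The promoters of the members were searched for such sites. RefSeq promoter sequences of build GRCm38.p6 were held for 34 of the 49 genes, and *Cdh1* was not among the 34. The 250 bases before the start of transcription were read. The E-box CACCTG, on either strand, was found in 17 of the 34, against 16.5% of 17492 protein-coding promoters of the same length. G+C made up a median of 59.6% of the member sequences and 55.2% of all of them. Among sequences of 53.0% to 64.6% G+C, the quartiles of the members, 11 of 16 members, or 68.8%, and 18.9% of all promoters held the site. Members outside that range held it less often, in *Krt7*, *Krt23*, *Tjp3*, *Spint2*, *Pard6b* and *Spp1* only. They were not set against promoters of like G+C, so the higher share inside the range does not describe the members as a whole. The 16 measured members with a site had a median difference of 0.15 and the 17 without had 0.18. A match of letters is a description, and it does not show that a factor binds.

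The sequences below show some of the members with sites and some of those that were higher without one. Each CACCTG, or its reverse complement CAGGTG, is in capitals. *Spint2*, at chr7:29281978-29282227 (minus strand), holds 3 sites and had a ratio of 1.203, and *Muc1*, at chr3:89228806-89229055 (plus strand), holds 2 and had 1.23. *Cldn6*, at chr17:23679115-23679364 (plus strand), holds 1 site and had 1.25, and *Epcam*, at chr17:87635729-87635978 (plus strand), holds 2 and had 1.11. *Crb3*, at chr17:57061951-57062200 (plus strand), holds 3 and had 0.985. The windows used for *Ocln*, at chr13:100552719-100552968 (minus strand), and *Marveld2*, at chr13:100616972-100617221 (minus strand), hold 0 sites, and these genes had ratios of 1.31 and 1.40.
*Spint2*: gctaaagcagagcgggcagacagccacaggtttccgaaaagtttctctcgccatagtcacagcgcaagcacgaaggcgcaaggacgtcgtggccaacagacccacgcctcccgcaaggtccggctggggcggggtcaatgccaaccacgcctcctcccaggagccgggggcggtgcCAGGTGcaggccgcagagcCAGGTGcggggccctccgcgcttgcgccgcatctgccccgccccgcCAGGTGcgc
*Muc1*: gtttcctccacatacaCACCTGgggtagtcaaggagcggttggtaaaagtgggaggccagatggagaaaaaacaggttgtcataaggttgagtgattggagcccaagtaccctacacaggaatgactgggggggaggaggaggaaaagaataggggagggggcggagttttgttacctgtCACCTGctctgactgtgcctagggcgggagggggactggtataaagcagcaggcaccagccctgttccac
*Cldn6*: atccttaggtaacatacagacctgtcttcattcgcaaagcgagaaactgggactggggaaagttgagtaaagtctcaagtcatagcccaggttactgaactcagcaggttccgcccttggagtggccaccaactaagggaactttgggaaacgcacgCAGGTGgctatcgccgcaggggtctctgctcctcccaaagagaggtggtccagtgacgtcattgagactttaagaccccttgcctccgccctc
*Epcam*: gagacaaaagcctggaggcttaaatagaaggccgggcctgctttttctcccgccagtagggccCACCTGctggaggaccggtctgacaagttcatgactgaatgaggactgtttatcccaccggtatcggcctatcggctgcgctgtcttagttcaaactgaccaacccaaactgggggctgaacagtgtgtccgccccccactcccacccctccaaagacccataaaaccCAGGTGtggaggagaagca
*Crb3*: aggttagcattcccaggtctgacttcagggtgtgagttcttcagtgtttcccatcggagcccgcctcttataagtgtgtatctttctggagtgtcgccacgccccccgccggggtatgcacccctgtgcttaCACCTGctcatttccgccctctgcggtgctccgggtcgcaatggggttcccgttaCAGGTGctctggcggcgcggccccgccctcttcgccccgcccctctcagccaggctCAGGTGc
*Ocln*: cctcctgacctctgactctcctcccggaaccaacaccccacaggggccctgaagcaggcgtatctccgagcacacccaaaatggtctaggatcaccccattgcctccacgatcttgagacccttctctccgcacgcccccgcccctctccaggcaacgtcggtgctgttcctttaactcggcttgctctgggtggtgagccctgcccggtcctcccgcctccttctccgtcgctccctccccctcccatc
*Marveld2*: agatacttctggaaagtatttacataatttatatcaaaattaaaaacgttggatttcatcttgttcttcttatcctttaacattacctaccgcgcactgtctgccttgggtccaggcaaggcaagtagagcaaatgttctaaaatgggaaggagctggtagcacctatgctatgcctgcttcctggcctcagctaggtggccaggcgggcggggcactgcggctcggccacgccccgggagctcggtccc

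Sites of the MAF proteins were searched in the same windows, because MAFK binds the Maf recognition element. The full palindromic element was found in 0 of the 34 and in 0 of the 17492, the core with 1 arm in 0 members and 0.0743% of all, and the core TGACTCA, which both contain, in 3 members, *F11r*, *Prom1* and *Cldn4*, against 4.0% of all. The arm TCAGCA, part of the longer forms, was found in 4 members, or 11.76%, against 14.8%. The differences of *F11r*, *Prom1* and *Cldn4* were 0.06, -0.09 and 0.07. Absence of a match says only that these letters are not in this window.

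A further 6 motifs were searched on both strands. The site AACCGGTT, bound by GRHL factors, was found in 0 members and 0.143% of all promoters, and the related AACCTG in 13 members, or 38.24%, against 12.5%. The GC box GGGCGG was found in 20 members against 42.7% of all, the ETS core GGAAG in 18 against 64.6%, the TATA box TATAAA in 5 against 12.4%, and the ONECUT core ATCAAT in 2 against 6.3%. As a share of the 34 members these make 58.82%, 52.94%, 14.71% and 5.88%. AACCTG and CACCTG share the letters ACCTG and differ in the first.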

How the data were processed

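Total RNA of whole E15.5 pancreata was hybridised to Affymetrix MoGene arrays, with 1 array of *Mafk*-Tg and 1 of WT. The authors normalized the arrays and summarized probe sets with Affymetrix Expression Console (version and algorithm not given in the sources used here). Deposited values are log2, their median was 6.01 for either array, and they were used as they are. Of 35556 probe sets, 21797 had 1 distinct gene symbol in the platform's table, 1613 had several and 12146 are unnamed here. Those with 1 symbol were averaged per gene, which gave 19946 genes. The 1.2-fold cutoff follows the study's methods.

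With 1 array per genotype no p-value or error was computed, and precision is limited by the number of arrays. The members and gene lists were chosen with earlier results of these data known. All members were named, and in other lists up to 3 genes with the largest differences at or above the median level. *Mafk* and the sex-linked genes were named as checks. *Cpa1*, *Ptf1a*, *Sox9*, *Vim*, *Krt14*, *Acta2*, *Ins2*, *Chga*, *Vil1*, *Tff2*, the catenins, the repressors beyond 3 and dim genes past the cutoff were chosen after their values were seen. Equal medians, quantile normalization, a loess with a span of 0.3, the brightest probe set, shared probe sets, a filter on level and cutoffs of 1.1- and 1.5-fold were tried. Centring on the median of all genes and leaving out the X-linked member were alternatives chosen after seeing the data. Scripts were tested on simulated data with known differences. Motifs were searched in the first RefSeq window listed for a gene, chosen after the values had been seen. Calculations ran in Python 3.11.15 with pandas 2.3.3 and numpy 2.4.6, loess in statsmodels 0.14.6, and plots in matplotlib 3.10.9.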

Additional observations from a re-analysis of the deposited data

How the results depend on the processing

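The direction of the member median held under every alternative run, at 0.15 to 0.16 on the log2 scale. The number of members at least 1.2-fold higher, 9 as deposited, was 8 to 12 under other scalings and other choices of probe sets or genes. It was 28 at a cutoff of 1.1-fold, where the background was 20.8%, and 0 at 1.5-fold, where it was 0.697%. The number lower, 1 as deposited, was 3 at 1.1-fold, 0 at 1.5-fold and 0 without genes below the median level, which leaves out *Cftr*. Calls near the cutoff changed with the scaling: *Cldn2*, *Dsg2* and *Esrp2* passed it after quantile normalization and with all genes centred (12 higher, an alternative chosen after seeing the data), *Cldn2* and *Dsg2* after loess, and *Spint2* was short of it after quantile or loess normalization, and *Cldn10* had 0.13 with its shared probe set included. No member at 1.2-fold changed direction, and *Ovol2*, equal on both arrays, took either sign. No paired analysis was possible because each genotype has 1 array. Signals below the median level, held by 6 members, are limited by background, and no value here carries a replicate error.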

Other observations

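Genes of stomach and gut, which share keratins and claudins with the pancreatic epithelium, gave a mixed picture. Of 17 such genes, 3 passed 1.2-fold upward and 1 downward, against a background of 7.96% and 10.5%, and their median difference was 0.06. Only 5 of the 17 lay at or above the median level, all 3 of the higher genes among them, and the median of these 5 was 0.51. The summed linear signal of the 17 was 2288 in *Mafk*-Tg and 877 in WT, and *Cym* alone made up most of that gap. The 3 were *Cym*, the gene of the protease chymosin, with 10.51 in *Mafk*-Tg and 7.17 in WT, *Anxa13*, an annexin gene of gut epithelium, with 6.92 in *Mafk*-Tg and 6.25 in WT, and *Cdx1*, an intestinal homeobox gene, with 6.68 in *Mafk*-Tg and 6.17 in WT. The 1 lower, *Gkn1*, a stomach mucosa gene, had 5.08 in *Mafk*-Tg and 5.48 in WT, below the median level. The other 2 genes at or above the median level were *Vil1*, the gene of the microvillar protein villin, with 7.24 in *Mafk*-Tg and 6.98 in WT, and *Tff2*, a trefoil factor gene, with 6.73 in *Mafk*-Tg and 6.70 in WT. The stomach claudin gene *Cldn18* was higher by 0.55. The part of gut or stomach tissue in the values of the epithelial genes was not tested.

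Nerve and glial genes had a median of 0.05, with 1 of 6 higher and 1 lower. *Ret*, a receptor gene of enteric neurons, had 8.74 in *Mafk*-Tg and 8.34 in WT, a difference of 0.40, while *Prph*, the gene of the neuronal filament protein peripherin, had 0.21 and *Erbb3* had 0.07. The 1 lower, *Foxd3*, a neural crest factor gene, was dim and had -0.40. The 5 sex-linked genes at or above the median level were all higher in *Mafk*-Tg, with *Kdm6a* at 0.60 and *Kdm5c* at 0.46 after *Xist*.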
